A study of Mus musculus with 21 samples.

Results

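Fibroblasts and preadipocytes are the matrix-building cells and the fat precursors that lie between brown adipocytes and between muscle fibres, and 10 of their marker genes were followed here. They were Dcn, Lum, Dpt, Fbn1, Postn, Pdgfra, Pdgfrb, Dlk1, Thy1 and Cd34, found by gene symbol in the deposited count tables, and 10 of 28541 gene models matched, with 1 model per symbol. All 10 passed the filter on low counts in the main fit of every comparison. RNA of mice was sequenced from 2 whole tissues, brown adipose tissue (BAT) and white vastus (WV), a muscle of the thigh. BAT had 5 libraries of floxed littermate controls and 6 of BATI4KO mice, and WV had 5 of each genotype. BATI4KO is taken, from knowledge of the line, as deletion of the transcription factor gene Irf4 by a Cre recombinase driven by the Ucp1 promoter, which is active in brown adipocytes. The floxed controls carry the loxP-flanked gene without deletion. No treatment was given in the labels, and strain, age and sex were not given in the sources used here. Whether the libraries of a group came from different mice is not stated, and the p-values measure only how far these libraries spread, which may be technical.

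Stromal fibroblasts lay down collagen fibrils and coat them with small leucine-rich proteoglycans such as decorin and lumican. Cells that carry PDGF receptors at their surface include the precursors of brown and white adipocytes in fat and the fibro-adipogenic progenitors of muscle, while PDGF receptor beta also marks the pericytes of small vessels. None of these markers belongs to a single cell type: Cd34 is also made by endothelial cells and Thy1 by T lymphocytes.

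Library totals ran from 20219479 to 41773148 counts in BAT and from 30479508 to 40328627 in WV, and the 10 markers together made up 0.0256% to 0.135% of a library. Irf4 was lower in BATI4KO BAT, with 6.56 to 8.09 CPM (counts scaled to a common library size) against 23.9 to 59.8 in floxed BAT. By edgeR this was a change of -2.45 on the log2 scale in BAT (SE 0.24, adjusted p = 0.0026), while Irf4 in WV did not pass (-0.48, SE 0.19, adjusted p = 0.489). Ucp1, the uncoupling protein that defines brown fat, lay between 1016 and 5690 CPM in BAT and at or below 0.412 CPM in WV (scaled over all libraries), where 4 libraries had no count. Contractile muscle genes were also present in BAT: 20 such genes summed to 242 to 1300 CPM in the floxed libraries and 693 to 18968 CPM in the BATI4KO libraries, against 313606 to 693299 CPM in WV. These sums carry scaling factors computed over all libraries and are not shares of a library's counts. The titles of 6 BAT libraries, 3 per genotype, end in a short number (1, 2 or 3), and those of the other 5 BAT libraries and of the 10 WV libraries end in a long tag such as FX_5497, where FX stands in floxed and KO in BATI4KO titles. The labels do not say what this difference means, and it was a term in the BAT fits.

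The promoter windows of Postn and Fbn1 are shown because these genes stood at opposite ends of the marker list when BAT was set against WV. Each window holds the 250 bases before a RefSeq transcript start on assembly GRCm38.p6, written 5′ to 3′ along the gene, with matches to a searched motif in capitals. The motifs were TATAAA, the TATA box, and a pair of GAAA blocks with any 2 bases between them, the core of the interferon-stimulated response element that IRF factors are known to bind. Both were searched on either strand.
Postn window 1, chr3:54359017-54359266, plus strand: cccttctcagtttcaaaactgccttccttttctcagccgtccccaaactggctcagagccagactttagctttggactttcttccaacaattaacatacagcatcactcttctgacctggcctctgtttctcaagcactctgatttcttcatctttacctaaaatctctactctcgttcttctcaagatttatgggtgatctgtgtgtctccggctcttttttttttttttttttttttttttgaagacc
Postn window 2, chr3:54360857-54361106, plus strand: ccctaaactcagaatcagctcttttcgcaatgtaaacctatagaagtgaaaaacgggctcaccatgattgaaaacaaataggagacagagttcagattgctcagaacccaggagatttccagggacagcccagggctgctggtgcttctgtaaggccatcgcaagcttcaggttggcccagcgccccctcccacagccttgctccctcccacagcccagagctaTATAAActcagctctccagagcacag
Fbn1, chr2:125506439-125506688, minus strand: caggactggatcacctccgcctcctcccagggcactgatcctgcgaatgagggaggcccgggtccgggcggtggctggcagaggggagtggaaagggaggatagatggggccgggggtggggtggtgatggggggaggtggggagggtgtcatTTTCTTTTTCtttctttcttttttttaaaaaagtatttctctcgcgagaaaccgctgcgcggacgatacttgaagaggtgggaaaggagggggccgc
The second Postn window held a TATAAA whose first base was 26 bases before the start. The Fbn1 window held the paired GAAA motif on the opposite strand, so that the capitals show its reverse complement, with the match beginning 97 bases before the start. The 7 windows found for 6 of the 10 markers held no other match to either motif. Among 32851 RefSeq promoter windows of the same length, 12.4% held TATAAA and 2.98% held the paired GAAA motif. The matches describe these letters only.

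To compare tissues and genes, levels were expressed as RPKM, the CPM divided by the length of the gene model in kilobases, scaled over all 21 libraries. In floxed BAT the order of mean RPKM was Dcn, Postn, Dpt, Lum, Pdgfrb, Cd34, Pdgfra, Fbn1, Thy1 and Dlk1, from 71.4 ± 23.3 for Dcn to 0.262 ± 0.164 for Dlk1 (SD, n = 5). In floxed WV it was Dcn, Dpt, Lum, Cd34, Fbn1, Pdgfrb, Pdgfra, Postn, Thy1 and Dlk1, from 218 ± 112 to 0.0984 ± 0.0363 (SD, n = 5). Postn thus stood the second in BAT and the eighth in WV. Neighbours in these orders often overlapped, such as Dpt and Lum in BAT (13.9 to 22.7 against 10.3 to 34.2 RPKM) and Pdgfrb and Pdgfra in WV (5.47 to 10.9 against 5.30 to 10.7 RPKM).

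**Figure D1:**
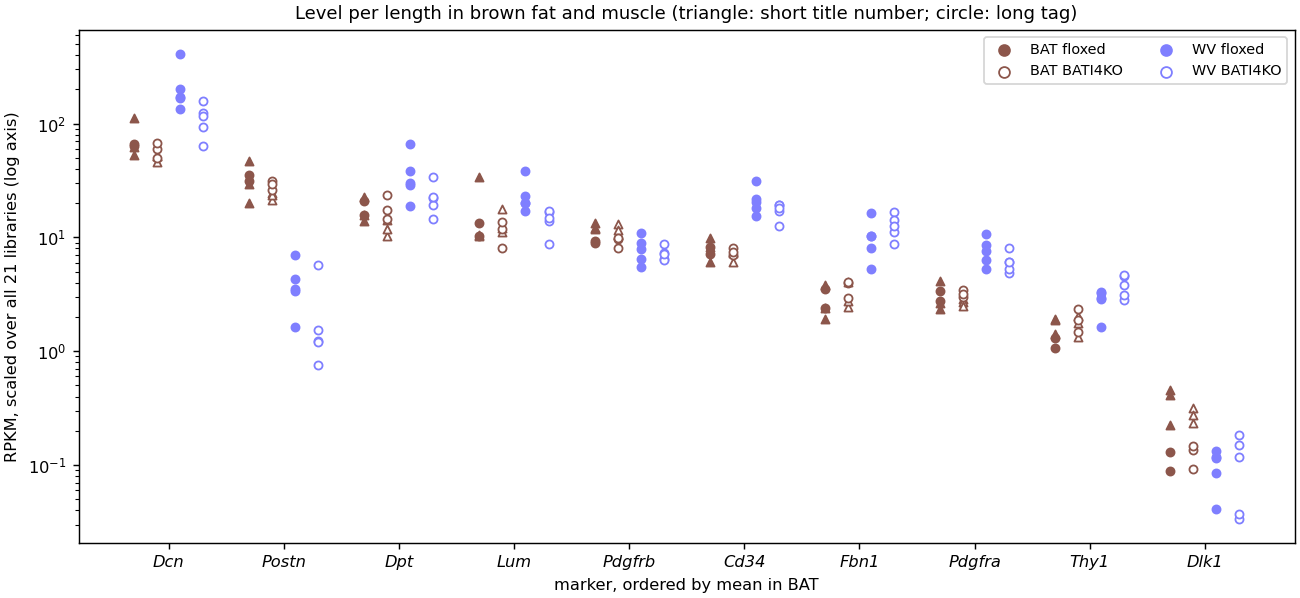
RPKM of the 10 markers on a log axis, 1 point per library, in BAT (brown) and WV (blue), filled for floxed and open for BATI4KO; triangles are BAT libraries with short title numbers. Postn is the marker whose BAT points lie wholly above its WV points, while Fbn1, Cd34 and Pdgfra lie wholly below.

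Between tissues of floxed mice, periostin RNA was higher in BAT and 7 other markers were lower there. Of the 10 markers, 8 passed (edgeR quasi-likelihood F test, adjusted p under 0.05, Benjamini-Hochberg over 16632 genes), beside 65.8% of all tested genes. Postn alone was higher, beside 34.1% of genes higher, and 7 were lower, beside 31.7%. In BATI4KO mice 6 passed, beside 70.5% of all tested genes, with 1 higher (37.4% of genes) and 5 lower (33.1%). A tissue difference was thus common among all genes. The median log2 difference of the 10 markers (BAT minus WV) was -0.94 in floxed mice and -0.70 in BATI4KO mice, while the median of all genes was 0.11 and 0.14. The fit included the title number style, which differs only within BAT, and the tissue difference is therefore read at BAT libraries with long tags. In whole tissue, fewer cells of a type and less RNA per cell cannot be told apart. The 20 contractile muscle genes, of which 19 were lower in floxed BAT and 20 in BATI4KO BAT, made up much of the WV libraries, and their share in each tissue enters every CPM and RPKM value.

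Postn encodes periostin, a matricellular protein that fibroblasts secrete and that takes part in collagen crosslinking. Its RPKM in floxed BAT was 20.1, 29.4, 47.4, 35.7 and 31.4, and in floxed WV 6.94, 3.51, 3.40, 1.63 and 4.33. The lowest BAT library was above the highest WV library. The fitted difference was 9.04-fold higher in BAT (log2 3.18, SE 0.47, adjusted p = 4.17e-06). In BATI4KO mice Postn ran from 21.4 to 31.5 RPKM in BAT and was 5.76, 0.759, 1.53, 1.24 and 1.21 RPKM in WV, again without overlap. The difference was 13.1-fold (log2 3.71, SE 0.46, adjusted p = 2.93e-07). Postn made up 23.0% of the summed marker counts in floxed BAT and 1.38% in floxed WV.

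The other matrix genes were lower in BAT. Fbn1 encodes fibrillin-1, the backbone of microfibrils. It was 2.39, 1.93, 3.81, 2.38 and 3.55 RPKM in floxed BAT and 5.31, 10.3, 8.01, 10.3 and 16.2 RPKM in floxed WV, with no overlap. The log2 difference was -1.72 (SE 0.30, adjusted p = 3.08e-05) in floxed mice and -1.82 (SE 0.27, adjusted p = 4.32e-06) in BATI4KO mice, where the groups did not overlap either. Dcn, which encodes the proteoglycan decorin, ran from 52.9 to 112 RPKM in floxed BAT and from 133 to 413 RPKM in floxed WV. The floxed groups did not overlap, with a log2 difference of -1.59 (SE 0.33, adjusted p = 0.000281). In BATI4KO mice the Dcn ranges met, at 46.1 to 67.3 RPKM in BAT and 63.2 to 158 in WV, and the log2 difference was -1.004 (SE 0.29, adjusted p = 0.0046).

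Lum, which encodes lumican, and Dpt, which encodes dermatopontin, a small protein that binds decorin, showed smaller tissue differences with overlapping ranges. In floxed mice Lum gave a log2 difference of -0.89 (SE 0.35, adjusted p = 0.0294) and Dpt one of -0.81 (SE 0.32, adjusted p = 0.0313). Neither passed in BATI4KO mice, where the log2 difference was -0.42 (SE 0.31, adjusted p = 0.231) for Lum and -0.39 (SE 0.28, adjusted p = 0.223) for Dpt. Both passed there in an edgeR fit of only the tags shared by tissues, with a term per tag. That fit gave -0.69 (adjusted p = 0.0141) for Lum and -0.77 (adjusted p = 0.00224) for Dpt. The floxed calls rested on few libraries. Without BAT floxed library FX_5497 the adjusted p was 0.0613 for Lum and 0.143 for Dpt, without BAT floxed library FX_5503 it was 0.113 and 0.0751, and without WV floxed library FX_5415 it was 0.0655 and 0.0761. Both were also lost with upper-quartile scaling (adjusted p = 0.0654 for Lum and 0.0706 for Dpt) and with library totals (0.567 and 0.628), and Lum without the title style term (0.0851).

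The PDGF receptors are tyrosine kinases that drive growth and migration of stromal cells. Pdgfra, the receptor that marks fibroblasts and adipocyte progenitors, was 2.37, 2.65, 4.18, 3.40 and 2.76 RPKM in floxed BAT and 5.30, 10.7, 6.31, 8.65 and 7.58 RPKM in floxed WV. Every BAT library was below every WV library, with a log2 difference of -1.24 (SE 0.21, adjusted p = 2.67e-05) in floxed mice and -0.97 (SE 0.19, adjusted p = 0.000115) in BATI4KO mice. Pdgfrb, which also marks pericytes, ran from 8.92 to 13.4 RPKM in floxed BAT and from 5.47 to 10.9 RPKM in floxed WV. Its tissue difference did not pass in floxed mice (log2 0.23, 95% interval -0.11 to 0.57, adjusted p = 0.221) or in BATI4KO mice (log2 0.33, 95% interval 0.02 to 0.64, adjusted p = 0.0533). It passed in floxed mice without WV floxed library FX_5413 (log2 0.37, adjusted p = 0.0303), with upper-quartile scaling (log2 0.36, adjusted p = 0.0356), with library totals (log2 0.94, adjusted p = 3.09e-05) and without the title style term (log2 0.48, adjusted p = 0.0138). In BATI4KO mice it passed with upper-quartile scaling (log2 0.52, adjusted p = 0.00198), with library totals (log2 1.29, adjusted p = 1.16e-07), with a filter of 1 CPM (log2 0.36, adjusted p = 0.0342), with limma voom (log2 0.34, adjusted p = 0.0497) and without the style term (log2 0.54, adjusted p = 0.00482). It also passed there without any 1 of 6 libraries (adjusted p from 0.0234 to 0.0494), which were BAT floxed 3, BAT BATI4KO 2 and KO_5414, WV floxed FX_5413 and FX_5503, and WV BATI4KO KO_5495.

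The ligands of these receptors also differed by tissue. Of the 7 PDGF ligand and receptor genes, 3 were higher and 2 lower in floxed BAT. Pdgfa, a ligand of PDGF receptor alpha, was lower in BAT (log2 -2.86, SE 0.20, adjusted p = 5.16e-11). Pdgfd, a ligand of PDGF receptor beta, was higher (log2 1.84, SE 0.24, adjusted p = 7.35e-07), as were Pdgfb (log2 0.98, adjusted p = 0.000302) and Pdgfc (log2 0.86, adjusted p = 0.0122).

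Cd34, a sialomucin of the cell surface, was 6.10, 8.27, 9.79, 7.17 and 8.24 RPKM in floxed BAT and 15.3, 31.2, 18.1, 20.3 and 21.9 RPKM in floxed WV. The groups were separate in both genotypes, and the log2 difference was -1.41 (SE 0.19, adjusted p = 1.52e-06) in floxed and -1.24 (SE 0.18, adjusted p = 2.19e-06) in BATI4KO mice. Of 12 endothelial markers, Cd34 among them, 10 were higher and 2 lower in floxed BAT, so Cd34 differed in the opposite direction from most of that list. Thy1, a GPI-anchored surface glycoprotein of fibroblasts, was lower in BAT, with a log2 difference of -1.001 (SE 0.25, adjusted p = 0.00165) in floxed and -1.14 (SE 0.22, adjusted p = 0.000112) in BATI4KO mice. Thy1 is also among the 10 lymphocyte markers tested, of which 4 were higher and 1, Thy1 itself, lower in floxed BAT. Dlk1, the secreted and membrane-bound preadipocyte factor that holds back adipocyte differentiation, was the least abundant marker in both tissues, with 4 to 82 counts per library. Its tissue difference did not pass in floxed (log2 0.36, 95% interval -0.55 to 1.27) or BATI4KO mice (log2 0.12, 95% interval -0.71 to 0.96). Without the title style term it passed in floxed mice (log2 1.38, adjusted p = 0.0166), and with library totals it passed in floxed (log2 1.03, adjusted p = 0.0491) and BATI4KO mice (log2 1.07, adjusted p = 0.0232).

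Groups did not overlap between floxed tissues for 5 of the 10 markers (Dcn, Pdgfra, Cd34, Fbn1 and Postn), beside 52% of all tested genes. Postn was above (26.3% of genes) and the other 4 below (25.7%). In BATI4KO mice the 5 were Pdgfra, Thy1, Cd34, Fbn1 and Postn, beside 56.3% of genes, again with Postn above (28.8%) and 4 below (27.6%). The choice of scaling moved these differences together with all genes. With library totals in place of TMM factors, the median of all genes rose from 0.11 to 0.79 in floxed and from 0.14 to 1.09 in BATI4KO mice. The split of calls higher and lower in BAT then went from 5676 and 5276 to 9474 and 2647 genes in floxed mice and from 6213 and 5505 to 11365 and 2288 in BATI4KO mice. Relative to the median of all genes, Postn was 3.07 higher with TMM and 3.12 higher with library totals in floxed mice, and Fbn1 was at -1.83 and -1.84. Taken without that median, library totals turned Lum (0.51) and Dpt (0.52) positive in BATI4KO mice. They left 6 markers past the threshold in floxed mice, 3 higher (Postn, Pdgfrb and Dlk1) and 3 lower (Dcn, Cd34 and Fbn1). Pdgfra (log2 -0.59) and Thy1 (log2 -0.34), like Lum and Dpt, no longer passed there. In BATI4KO mice 4 passed, with Postn, Pdgfrb and Dlk1 higher and Fbn1 lower. Dcn (log2 -0.089), Pdgfra (log2 -0.044), Thy1 (log2 -0.21) and Cd34 (log2 -0.30) no longer passed there.

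The related gene lists showed how far the markers shared these tissue differences. Of 30 tested genes of stromal progenitors and fibroblasts, 20 were lower and 6 higher in floxed BAT, with a median log2 difference of -1.11. Osr1, a transcription factor of muscle connective tissue progenitors, was lower (log2 -1.61, adjusted p = 1.26e-09), while the intermediate filament gene Vim was higher (log2 1.73, adjusted p = 4.82e-07). Among 19 microfibril and elastic fibre genes, 13 were lower and 3 higher, and Ltbp2, a fibrillin-binding protein, went against Fbn1 with a log2 difference of 7.11 (SE 0.18, adjusted p = 3e-17). Its mean was 133.6 ± 13.9 CPM in floxed BAT and 0.964 ± 0.131 CPM in floxed WV (SD, n = 5, scaled over all libraries).

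Among 10 small leucine-rich proteoglycans, 6 were lower and Prelp was higher in floxed BAT (log2 3.01, SE 0.22, adjusted p = 1.29e-10). Fmod, the proteoglycan fibromodulin of tendon and cartilage, was lower in BAT (log2 -6.97, SE 0.72, adjusted p = 2.53e-08), and the keratocan gene Kera had no count in any of the 11 BAT libraries. Of 13 matricellular genes linked to periostin, 8 were lower and 2 higher, Postn and Ccdc80 (log2 1.09, adjusted p = 0.00121). Thbs4, a thrombospondin of tendon and muscle matrix, was lower (log2 -6.63, SE 0.83, adjusted p = 4.62e-07). The list of 21 preadipocyte and adipogenic commitment genes gave 13 higher and 7 lower, led upward by Pparg (log2 6.34, adjusted p = 1.15e-14), which mature adipocytes also express.

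In BAT, the question was whether loss of Irf4 in brown adipocytes altered the stromal markers around them. None of the 10 markers passed between genotypes (edgeR, adjusted p under 0.05), beside 0.0436% of 16051 tested genes, and none passed by DESeq2 or limma voom. At an unadjusted p under 0.05 there was 1, Dcn, beside 14.7% of all tested genes. A negative log2 difference was found for 8 markers and a positive one for 2 (BATI4KO minus floxed), with a median of -0.16 against -0.01 over all genes. The groups overlapped for all 10, beside 1% of tested genes whose groups did not overlap.

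**Figure D2:**
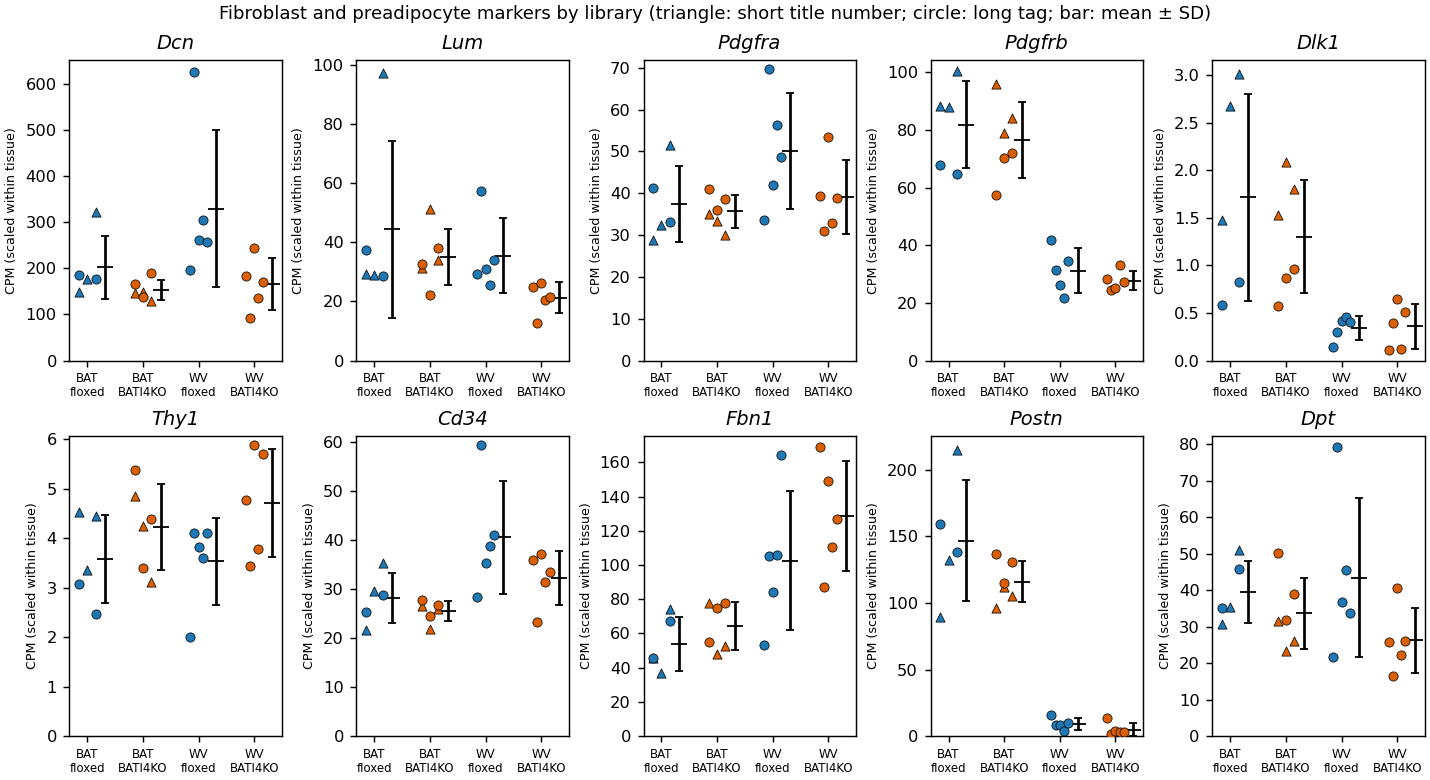
CPM of each marker in every library, scaled within each tissue, so heights compare within a tissue and not between tissues; bars are mean ± SD of a group of 5 or 6 libraries, triangles short title numbers and circles long tags. BAT floxed library 3 is the highest point for Dcn (321) and Lum (97.4) in BAT, and WV floxed library FX_5415 is the highest for Dcn (625) in WV.

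The proteoglycan genes Dcn and Lum and the collagen-binding gene Dpt had negative differences in BAT that did not pass. Dcn was 149, 177, 321, 186 and 176 CPM in the floxed libraries and 129 to 190 CPM in the BATI4KO libraries (median 148, n = 6). A single floxed library, number 3, stood above all others, and the remaining ranges overlapped. The log2 difference was -0.40 (SE 0.18, adjusted p = 0.336). Lum was 29.4, 29.1, 97.4, 37.4 and 28.5 CPM in floxed and 22.3 to 51.3 CPM in BATI4KO BAT (median 33.4). Its log2 difference of -0.27 (SE 0.30, adjusted p = 0.709) became 0.16 without floxed library 3. Dpt was 30.9, 35.3, 51.1, 35.0 and 45.9 CPM in floxed and 23.4 to 50.3 CPM in BATI4KO BAT, with a log2 difference of -0.30 (SE 0.17, adjusted p = 0.446).

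Postn was 89.7, 132, 215, 159 and 138 CPM in floxed and 95.9 to 136 CPM in BATI4KO BAT (median 113). In floxed BAT 4 of the 5 libraries lay above the BATI4KO median, and the log2 difference was -0.37 (SE 0.18, 95% interval -0.75 to 0.02, adjusted p = 0.361). Fbn1 went the other way, at 45.8, 37.2, 74.2, 45.6 and 67.1 CPM in floxed and 47.9 to 77.8 CPM in BATI4KO BAT (median 64.9). Its log2 difference was 0.23 (SE 0.19, adjusted p = 0.595). Without floxed library 3 the log2 differences were -0.17 for Dcn, -0.15 for Dpt, -0.16 for Postn and 0.41 for Fbn1, and none passed.

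The receptor and surface marker genes also overlapped between genotypes in BAT, and none passed. Pdgfra was 28.7, 32.3, 51.5, 41.2 and 33.1 CPM in floxed and 30.0 to 40.9 CPM in BATI4KO BAT, with a log2 difference of -0.08 (95% interval -0.39 to 0.22), which became 0.08 without floxed library 3. For Pdgfrb the difference was -0.05 (95% interval -0.24 to 0.14), the narrowest interval of the 10 in BAT. Cd34 ran from 21.7 to 35.3 CPM in floxed and from 21.8 to 27.7 CPM in BATI4KO BAT, with a log2 difference of -0.14 (95% interval -0.40 to 0.12), which was -0.046 without floxed library 3 and -0.22 without floxed library 1. Thy1 was 4.52, 3.36, 4.45, 3.07 and 2.47 CPM in floxed and 3.11 to 5.38 CPM in BATI4KO BAT, with a log2 difference of 0.29 (SE 0.19, adjusted p = 0.517). It was 0.16 without floxed library FX_5503 and 0.19 without BATI4KO library KO_5414. The other 9 lymphocyte markers also had a positive log2 difference, none passing, with a median of 0.96, and their summed level, without Thy1, was 5.04 to 6.54 CPM in floxed and 7.62 to 21.8 CPM in BATI4KO BAT. The part of lymphocyte RNA in the Thy1 value was not tested. Dlk1 gave a log2 difference of -0.17 (SE 0.24, adjusted p = 0.773).

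Contractile muscle genes had a positive log2 difference in BATI4KO BAT for 20 of 20, with a median of 2.60 and none passing, and BATI4KO library 3 had the highest summed level, 18968 CPM. With the muscle score as a further term, none of the 10 markers passed and the log2 difference of Dcn was -0.48 (adjusted p = 0.768). The related lists gave no call in BAT either. The 2 genes with the smallest p among stromal genes, neither passing, were Lox, which encodes the collagen crosslinking enzyme lysyl oxidase (log2 -0.73, SE 0.15, adjusted p = 0.14), and the integrin gene Itgb1 (log2 -0.29, SE 0.08, adjusted p = 0.18). Of 30 stromal genes 16 were negative and 14 positive, with a median of 0.00 to 2 decimals. Microfibril genes other than Fbn1 were negative for 9 and positive for 8 (median -0.01). Other lists were mostly negative in BAT too. Matricellular genes other than Postn were negative for 9 of 10 (median -0.13), and proteoglycans other than Dcn and Lum for 5 of 7 (median -0.20). Macrophage markers were negative for 10 of 11 (median -0.21) and brown adipocyte markers for 10 of 12 (median -0.36).

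**Figure D3:**
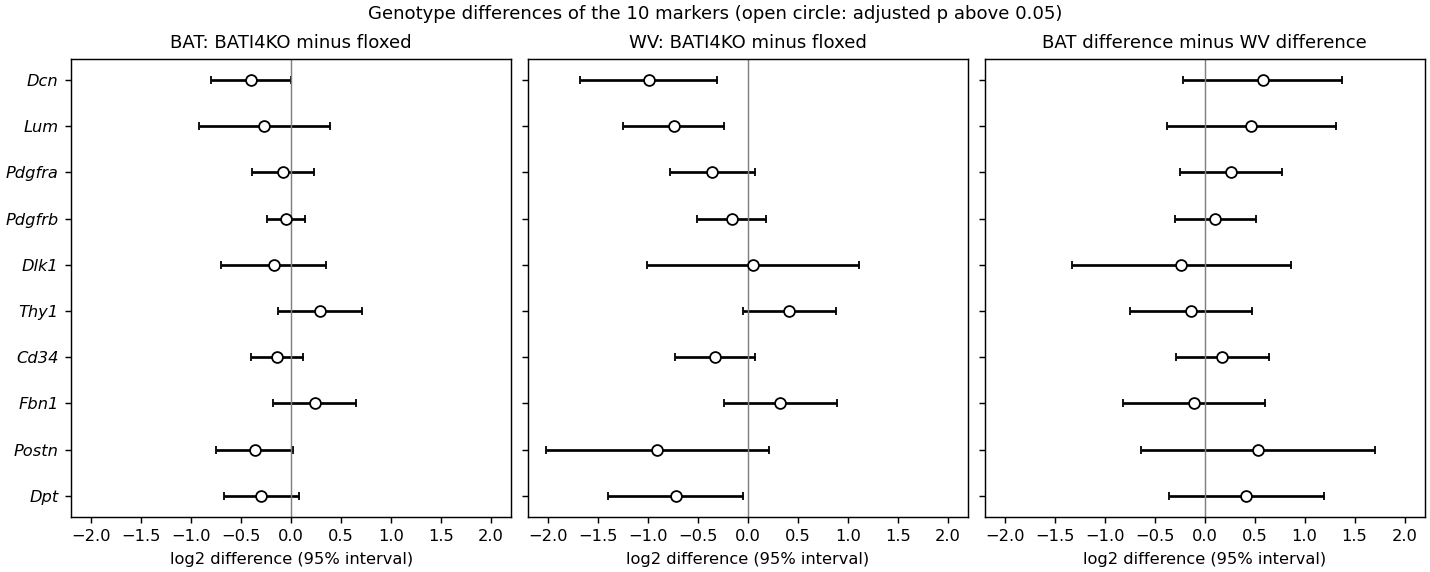
Log2 difference and 95% interval of each marker for BATI4KO minus floxed in BAT, the same in WV, and the BAT difference minus the WV difference, from 3 edgeR fits. All circles are open because no adjusted p was below 0.05; the intervals of Dcn, Lum and Dpt in WV and of Dcn in BAT (-0.80 to -0.0022) lie below 0.

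In WV, the comparison asked whether a gene deletion directed at brown fat went with altered stromal RNA in a muscle. None of the 10 markers passed, beside 0.00688% of 14529 tested genes, and none passed by DESeq2 or limma voom. DESeq2 gave no adjusted p for Dlk1 in WV. At an unadjusted p under 0.05 there were 3, Dcn, Lum and Dpt, beside 8.91% of all tested genes. All 3 had lower estimates in BATI4KO WV, beside 5.68% of genes with a lower estimate at that p. A negative log2 difference was found for 7 markers and a positive one for 3, with a median of -0.34 against -0.01 over all genes. For all 10 the genotype groups overlapped, beside 1.24% of genes whose groups did not.

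Dcn was 196, 625, 261, 306 and 256 CPM in the floxed libraries and 184, 92.8, 244, 135 and 170 CPM in the BATI4KO libraries of WV. Every floxed library except FX_5413 was above every BATI4KO library. The log2 difference was -0.99 (SE 0.32, 95% interval -1.68 to -0.31, adjusted p = 0.431), and it was -0.63 without floxed library FX_5415. Lum was 29.3, 57.5, 31.0, 25.5 and 34.1 CPM in floxed and 24.99, 12.8, 26.1, 20.4 and 21.6 CPM in BATI4KO WV. Only floxed library FX_5503 fell within the BATI4KO range, and the log2 difference of Lum was -0.74 (SE 0.23, adjusted p = 0.431).

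Dpt was 21.7, 79.3, 36.9, 45.4 and 33.9 CPM in floxed and 25.9, 16.6, 40.6, 22.1 and 26.2 CPM in BATI4KO WV. Its log2 difference of -0.72 (SE 0.31, adjusted p = 0.534) was -0.39 without floxed library FX_5415. Postn was 16.2, 8.40, 8.33, 3.90 and 10.2 CPM in floxed and 13.6, 1.76, 3.73, 2.85 and 2.81 CPM in BATI4KO WV. All floxed libraries were above 4 of the 5 BATI4KO libraries, and BATI4KO library KO_5492 was above 4 of the 5 floxed libraries. The log2 difference was -0.91 (SE 0.51, 95% interval -2.02 to 0.21, adjusted p = 0.652), and -1.75 without that library (adjusted p = 0.258).

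Fbn1 and Thy1 had positive log2 differences in WV as in BAT, and neither passed. Fbn1 was 53.1, 105, 84.3, 106 and 164 CPM in floxed and 169, 87.0, 149, 111 and 127 CPM in BATI4KO WV, with a log2 difference of 0.33 (SE 0.26, adjusted p = 0.745). It was 0.16 without floxed library FX_5413, 0.21 without BATI4KO library KO_5492 and 0.56 without floxed library FX_5514, none passing. Thy1 was 2.01, 4.11, 3.82, 3.59 and 4.11 CPM in floxed and 4.78, 3.44, 5.88, 3.78 and 5.69 CPM in BATI4KO WV, with a log2 difference of 0.41 (SE 0.21, adjusted p = 0.611), or 0.27 without floxed library FX_5413. Pdgfra was 33.6, 69.8, 42.02, 56.3 and 48.6 CPM in floxed and 39.5, 30.9, 53.4, 32.8 and 38.9 CPM in BATI4KO WV, a log2 difference of -0.36 (SE 0.20, adjusted p = 0.635). The remaining intervals included 0: Cd34 at -0.33 (-0.73 to 0.07), Pdgfrb at -0.16 (-0.51 to 0.18) and Dlk1 at 0.05 (-1.01 to 1.11), the last from 4 to 25 counts per library. Without floxed library FX_5415 the log2 difference was -0.21 for Pdgfra and -0.15 for Cd34, and for Pdgfrb it was -0.030 without floxed library FX_5413 and -0.27 without floxed library FX_5503. As a share of the marker counts summed over the libraries of a group, Dcn made up 51.8% in floxed and 36.7% in BATI4KO WV, and Fbn1 15.4% and 28.7%. Floxed library FX_5415 alone gave 25070 Dcn counts, against 5665 to 9967 in the other floxed libraries. These shares were not tested.

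Some of the related lists had mostly negative log2 differences in WV, and others were mixed. Of 30 stromal progenitor and fibroblast genes 23 were negative and 7 positive (median -0.28). Among 18 microfibril and elastic fibre genes other than Fbn1, 16 were negative and 2 positive (median -0.33). The 19 preadipocyte and commitment genes tested were negative for 14 and positive for 5 (median -0.28). No gene of these 3 lists passed. Beside Dcn and Lum, the other 8 small leucine-rich proteoglycans tested were negative (median -0.69), as were the 12 matricellular genes other than Postn (median -0.60) and 10 of 10 macrophage markers (median -0.50), and none of these genes passed. Contractile genes were positive for 10 and negative for 10 (median 0.04), lymphocyte markers without Thy1 positive for 3 and negative for 2 (median 0.065), and endothelial markers without Cd34 positive for 5 and negative for 6 (median -0.015). Of 8 tendon markers 7 were negative, with a median of -1.35 and none passing. Their summed level was 98.7 to 314 CPM in floxed and 37.7 to 144 CPM in BATI4KO WV, no tendon marker was at 0 in any WV library, and the highest libraries were floxed FX_5415 and, among BATI4KO, KO_5492. Among them Col12a1, a collagen of tendon and other dense connective tissue, gave a log2 difference of -1.41 (SE 0.34, adjusted p = 0.285), and Thbs4 one of -1.19 (SE 0.35, adjusted p = 0.391). Over the 10 WV libraries the 20 contractile genes were lowest in floxed FX_5415 (313606 CPM) and BATI4KO KO_5492 (334883 CPM). The part of tendon, macrophage or muscle RNA in the marker differences was not tested.

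The genotype differences of the 2 tissues were set against each other in 1 fit over all 21 libraries. None of the 10 markers passed for the difference between tissues, beside 0.018% of tested genes, and none had an unadjusted p under 0.05, beside 10.6%. DESeq2 and limma voom gave 0 as well, but DESeq2 gave no adjusted p for Dlk1. The largest estimates were Dcn, at 0.58 (BAT difference minus WV difference, 95% interval -0.21 to 1.38), and Postn, at 0.53 (-0.64 to 1.70). Both intervals include 0, so the estimates of Dcn and Postn in WV are not shown to differ from those in BAT.

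**Figure D4:**
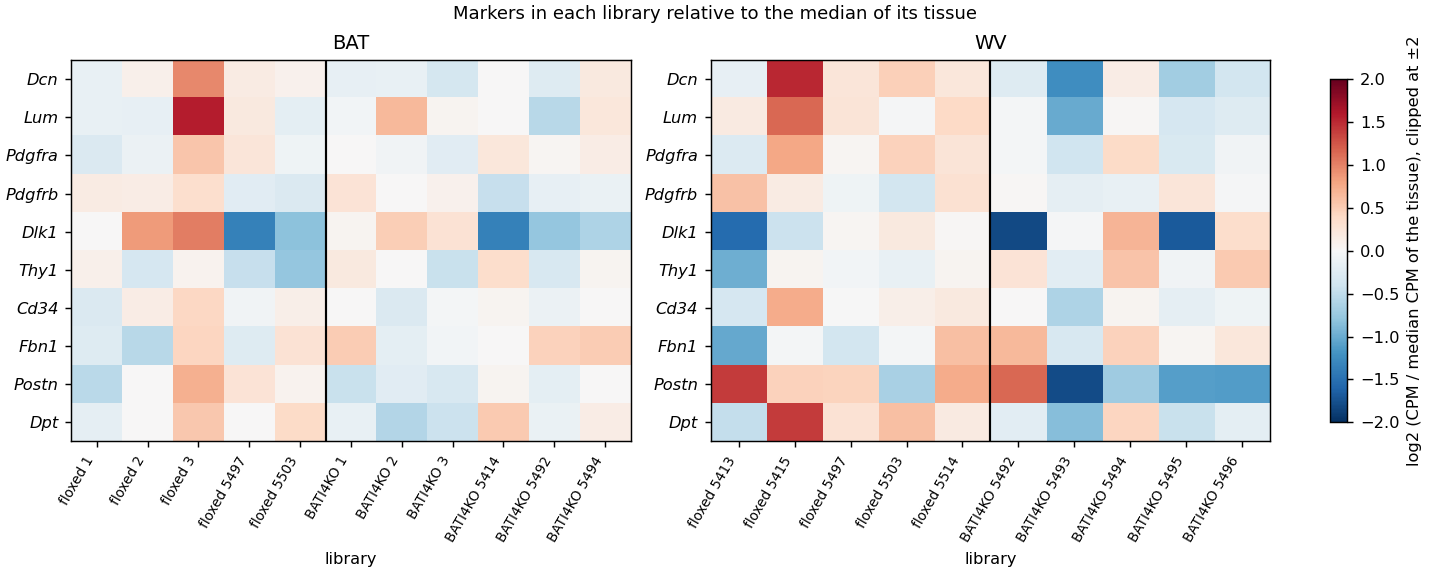
Log2 ratio of each marker's CPM to its median over the libraries of the same tissue, in columns for the 11 BAT and 10 WV libraries, with a line between genotypes. BAT floxed library 3 is above the median for all 10 markers, and WV BATI4KO library KO_5493 is above it for 0.

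Single libraries carried much of the variation among the markers. BAT floxed library 3 was above the BAT median for 10 of 10 markers and the highest of the 11 for 8, all but Thy1 and Fbn1, and its summed marker level was 953 CPM against 490 to 618 CPM in the other BAT libraries. These sums are scaled within each tissue and do not compare between tissues. WV floxed library FX_5415 was the highest of the 10 for 5 markers (Dcn, Lum, Pdgfra, Cd34 and Dpt) and summed to 1040 CPM, and WV floxed library FX_5514 was above the WV median for 10. WV BATI4KO library KO_5493 was above the median for 0 and the lowest for 6, with a sum of 294 CPM. The coefficient of variation within a group was lowest for Cd34 in BATI4KO BAT, 8.29%, and highest for Postn in BATI4KO WV, 98.8%. Lum in floxed BAT followed at 67.4%, against 27.3% in BATI4KO BAT.

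The style of the title number in BAT went with Dlk1 and Pdgfrb. Dlk1 was 1.48, 2.68 and 3.01 CPM in the floxed and 1.53, 2.08 and 1.80 CPM in the BATI4KO libraries with short numbers. With long tags it was 0.580 and 0.831 CPM in floxed and 0.578, 0.863 and 0.963 CPM in BATI4KO BAT. All 6 libraries with short numbers were above all 5 with long tags, in both genotypes, and the difference was 2.68-fold (log2 1.42, SE 0.25, edgeR adjusted p = 0.00133). Pdgfrb was 79.1 to 100.3 CPM with short numbers and 57.5 to 72.0 CPM with long tags, also without overlap, a difference of 1.34-fold (log2 0.42, SE 0.09, adjusted p = 0.00368). The other 8 markers did not pass. The count of 2 in 10 stood beside 31.3% of 16051 tested genes, and 14.9% of tested genes were higher with short numbers. Groups did not overlap for 15.9% of genes, with the short-number libraries above for 7.26%. With upper-quartile scaling the split of all calls went from 2394 higher and 2637 lower to 3154 and 1935, with library totals to 3344 and 1700, while the median of all genes went from 0.03 to 0.11 and 0.14. Dlk1 relative to that median was 1.396 with TMM and 1.395 with library totals. Without BAT floxed library 3 the count was 5, adding Pdgfra (log2 -0.26, adjusted p = 0.0422), Postn (log2 -0.34, adjusted p = 0.0344) and Dpt (log2 -0.46, adjusted p = 0.027). Of all 16201 genes tested without that library, 5306 passed.

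**Figure D5:**
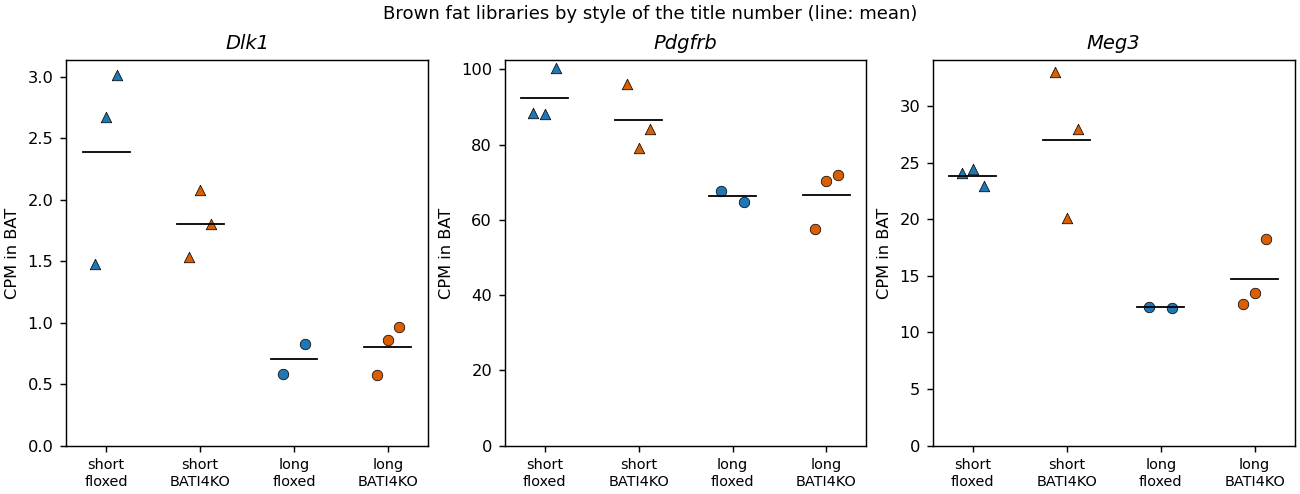
CPM of Dlk1, Pdgfrb and the imprinted non-coding RNA gene Meg3 in BAT libraries by title number style and genotype, 1 point per library, with a line at the mean. For each of the 3 genes the short-number libraries lie above the long-tag libraries in both genotypes.

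Meg3, a maternally expressed non-coding RNA in the same imprinted region as the paternally expressed Dlk1, was also higher with short numbers, at 20.1 to 33.0 CPM against 12.2 to 18.2 CPM (log2 0.91, SE 0.13, adjusted p = 0.000459). Of 5 tested genes of that region, 2 were higher and none lower, and all 5 had a positive log2 difference. Notch3, a receptor of pericytes and smooth muscle, was higher with short numbers as Pdgfrb was (log2 0.90, SE 0.09, adjusted p = 5.09e-05), while the smooth muscle myosin gene Myh11 was lower (log2 -0.56, SE 0.11, adjusted p = 0.00237). Of the 13 pericyte and smooth muscle markers, 4 were higher and 4 lower. Among preadipocyte and commitment genes 4 were higher and 4 lower, with Sox9 higher (log2 1.26, SE 0.24, adjusted p = 0.00244) and Fabp4, the fatty acid binding protein of maturing and mature adipocytes, lower (log2 -0.92, SE 0.16, adjusted p = 0.00137). What the title number stands for was not given, and its part in these values was not tested beyond this contrast.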

How the data were processed

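RNA sequencing counts of 21 mouse libraries were used as the authors deposited them, as whole-number read counts per gene model in 1 table per tissue. Per the submitters' processing notes, the named tools were featureCounts 1.4.6, TopHat2 2.0.14, bcl2fastq 2.17.1.14, edgeR, SAMtools 0.1.19 and Picard 2.2.4, and the build was mm9. Per the labels' protocols, ribosomal RNA was depleted and libraries were made with Nextera XT after random priming. Strand use in counting was not given in the sources used here, so reads of a gene and of an antisense gene cannot be told apart. The RefSeq annotation lists a microRNA gene overlapping Pdgfra and a long non-coding RNA gene overlapping each of Cd34, Postn and Dpt. Whether these lie on the opposite strand was not checked. Reads carried no molecular identifiers.

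In R 4.3.3, low-count genes were dropped with filterByExpr and TMM factors were computed. Each comparison used the F test of edgeR's quasi-likelihood model (version 4.0.16), and p-values were adjusted over all tested genes by the Benjamini-Hochberg method, with a threshold of 0.05. The BAT fit had the title number style as a covariate and the WV fit had none. Tissue differences and the difference of genotype effects came from 1 fit over all libraries. DESeq2 1.42.0 and limma 3.58.1 were alternatives, with other scalings, filters, subsets, blocks and left-out libraries. The SE is the size of the log2 difference divided by the square root of F. CPM of the markers and their sum were scaled within a tissue, as was CPM of Irf4 and Meg3, while RPKM, CPM of Ucp1 and Ltbp2 and the summed levels of related lists were scaled over all libraries. On simulated data with 200 changed genes, 73.9% of 2-fold and 33.3% of 1.5-fold changes were recovered for the BAT genotype comparison. For the WV genotype comparison the rates were 63.5% and 17.7%. The adjusted threshold depends on how many genes change, and the real fits called only 7 genes in BAT and 1 in WV. The simulated rates may therefore overstate recovery of the markers and are not a measure of power for them. Dcn in WV, with a 1.99-fold lower estimate, did not pass (edgeR adjusted p = 0.431).

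The markers and the related lists were chosen with earlier results of these data known. All 10 markers and Irf4 are named, and of each related list up to 3 genes per direction with the smallest p among those that passed, or up to 2 with the smallest p where none passed. Ucp1 was added as a check of the tissue. Promoter windows came from a RefSeq table on GRCm38.p6, a build other than that of the counts, matched by symbol. Markers on chromosome 18 were left out.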

Additional observations from a re-analysis of the deposited data

Results flagged for a closer look

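In 6 of 40 groups of 5 or 6 libraries a single library lay far from the rest, with a gap beyond Dixon's critical value at the 95% level. Chance gives about 1 such group in 20 where values are independent and normally distributed. The 40 groups share libraries across genes and normality was not tested, so 6 of 40 cannot be read against that rate. Decorin and lumican stood out in the same libraries: in floxed BAT, library 3 had 321 CPM of Dcn against 149 to 186 in the others and 97.4 CPM of Lum against 28.5 to 37.4. In floxed WV, library FX_5415 had 625 CPM of Dcn against 196 to 306 and 57.5 CPM of Lum against 25.5 to 34.1. Thy1 was low in WV floxed library FX_5413, at 2.01 CPM against 3.59 to 4.11. Postn was high in WV BATI4KO library KO_5492, at 13.6 CPM against 1.76 to 3.73.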

How the results depend on the processing

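No count of markers past the threshold changed by over 1.5 times under another scaling, filter, tool or subset, and it was 0 in every setting for both genotype comparisons and for their difference between tissues. Dlk1 had no adjusted p by DESeq2 in WV and for that difference, and it was not tested in WV with a filter of 1 CPM. With 1 library left out, the count ran from 6 to 9 between floxed tissues, from 6 to 7 between BATI4KO tissues and from 2 to 5 for the title style, where 5 was reached without BAT floxed library 3. Calls over all tested genes then ran from 10118 to 11048, from 11122 to 11950 and from 3435 to 5306. Other settings gave 6 to 9 and 4 to 9 markers between tissues, beside 9425 to 12121 and 9244 to 13653 of all genes. Of the single-marker values outside these left-out libraries, 573 kept their direction and side of the threshold, 11 lost and 15 gained the threshold, and 30 changed sign. The cause of these changes was not tested.

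In BAT, the genotype differences that changed sign were Pdgfra 0.058, Pdgfrb 0.091 and Cd34 0.0033 with library totals. With long tags alone they were Pdgfra 0.070, Pdgfrb 0.022, Dlk1 0.18 and Dpt 0.017, and with short numbers alone Thy1 -0.011. In WV, Dlk1 was -0.075 with library totals and -0.18 with limma voom. For the BAT minus WV genotype difference, library totals gave Dlk1 0.046, Thy1 0.13 and Fbn1 0.15, and long tags alone gave Dlk1 0.11 and Thy1 0.24. Between BATI4KO tissues, library totals gave Lum 0.51 and Dpt 0.52. For title style, Dcn was 0.066, 0.090 and 0.016 and Cd34 0.072, 0.10 and 0.020 with upper-quartile scaling, library totals and a filter of 1 CPM.

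With 1 library left out, the sign changed within these ranges. In BAT Lum ran from -0.40 to 0.16 and Pdgfra from -0.16 to 0.079, and in WV Dlk1 from -0.29 to 0.29. For the difference between tissues Pdgfrb ran from -0.040 to 0.21, Dlk1 from -0.48 to 0.095, Cd34 from -0.0046 to 0.27 and Fbn1 from -0.35 to 0.064. Between BATI4KO tissues Dlk1 ran from -0.13 to 0.45. For title style Dcn ran from -0.19 to 0.087 and Cd34 from -0.085 to 0.057.

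Deviations of libraries with the same short number in BAT gave r of 0.14, -0.12 and 0.077, within the -0.24 to 0.17 of unlike numbers. Tags shared by tissues gave r of -0.0007 to 0.066. Numbers were not taken as pairs in the main fits. Neither check can exclude pairs. The check on short numbers took deviations from means of few libraries, which ties its r values to each other. In the check across tissues, BAT deviations were taken from the group mean and still held the title style, and unlike tags were not compared. A replicate block on short numbers in BAT left 0 markers and 0 genes past the threshold (886 genes at an unadjusted p under 0.05) and turned Thy1 to -0.017. A replicate block on shared tags left 0 markers for the difference between tissues, with Lum -0.026, Pdgfrb -0.067, Dlk1 0.80, Cd34 -0.072 and Postn -0.64, and 9 markers in each tissue comparison, with Dlk1 at -0.20 in floxed mice. Of 16622 genes tested with that block, 9425 passed between floxed and 9244 between BATI4KO tissues. With that block Pdgfrb passed in floxed (0.59, adjusted p = 0.00675) and BATI4KO mice (0.52, adjusted p = 0.012), as did Lum (-0.69, adjusted p = 0.0141) and Dpt (-0.77, adjusted p = 0.00224) in BATI4KO mice.

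Over all genes, edgeR called 7 in BAT, 1 in WV and 3 for the difference, and DESeq2 called 372, 111 and 55. In BAT the count was 3 with upper-quartile scaling or a filter of 1 CPM, 1 without the style term or with the muscle score, 0 with short numbers alone and 1 to 16 with 1 library left out. In WV it was 5 with no filter, 0 with upper-quartile scaling, library totals or a filter of 1 CPM, and 0 to 11 with 1 library left out. For the difference it was 20 with long tags alone, 0 with the block and 3 to 30 with 1 library left out. Dlk1 rested on 4 to 25 counts per library in WV, where only large differences could be detected.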
